A study of Saccharomyces cerevisiae with 12 samples.

Results

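The genes described here encode the enzymes and the transcription factors of gluconeogenesis and the glyoxylate cycle in Saccharomyces cerevisiae. They are FBP1, PCK1, MLS1, ICL1, MDH2, CIT2, CAT8, SIP4 and ADR1, 9 of the 5449 yeast genes measured. Each was taken by its gene symbol, in a set chosen with earlier results of these data known. Each was read by 1 probe set, so no choice between probe sets arose. All arrays carried total RNA of EC1118, a commercial wine yeast from Lallemand, with no genetic change named in the labels. Reference RNA was taken from cells growing exponentially in YPD medium, which is rich in glucose, at 28 °C and an optical density of 1.0. All further RNA came from bottles in second fermentation, the step that makes sparkling wine of base wine. Cells grown in YPD and then adapted to ethanol in a medium containing base wine were added to base wine with 20 g/L of sucrose, and closed 350 mL bottles stood without shaking at 16 °C for about 40 days. Sampling took place on day 7 (ethanol up by 0.26%), day 15 (up by 0.89%) and day 19 (up by 1.27%). Each group had 3 arrays.

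Gluconeogenesis makes sugar phosphates from small carbon compounds by running most of glycolysis backwards. Fructose-1,6-bisphosphatase (FBP1) and phosphoenolpyruvate carboxykinase (PCK1) catalyse the steps that glycolysis cannot reverse. The glyoxylate cycle makes the needed C4 acids from acetyl units, such as those of ethanol or acetate, through isocitrate lyase (ICL1), malate synthase (MLS1), the cytosolic malate dehydrogenase (MDH2) and the peroxisomal citrate synthase (CIT2). In glucose these genes are repressed and several of the enzymes are degraded. When glucose is gone, the Snf1 kinase acts through the activators Cat8, Sip4 and Adr1.

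In the bottles the genes for both gluconeogenic enzymes, malate synthase and all 3 activators stood far above the growing culture at each sampling day. Of the 9 genes, 6 rose at day 7, 6 at day 15 and 8 at day 19 (limma, adjusted p under 0.05), and 0 fell. Over all genes tested, 19.7% rose and 17.1% fell at day 7, 21.4% rose and 23.5% fell at day 15, and 22.7% rose and 20.8% fell at day 19. Without replicate 1 of day 7 and replicate 1 of day 19, which stood apart from the other arrays, the counts that rose were 7, 7 and 8. In that fit 1281, 1528 and 1501 of all 5449 genes rose, and 44.0%, 59.0% and 52.5% were called in either direction. The median log2 difference of the 9 genes was 3.41, 3.36 and 3.85 at the 3 days, beside -0.03, -0.08 and -0.03 over all genes. All 3 bottle arrays lay above all 3 reference arrays for 7 of the 9 genes at day 7 and for 8 at each later day. The same held for 30.8%, 33.0% and 28.9% of all genes. These comparisons share the 3 reference arrays, and the 9 genes were chosen with earlier results of these data known.

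**Figure D1:**
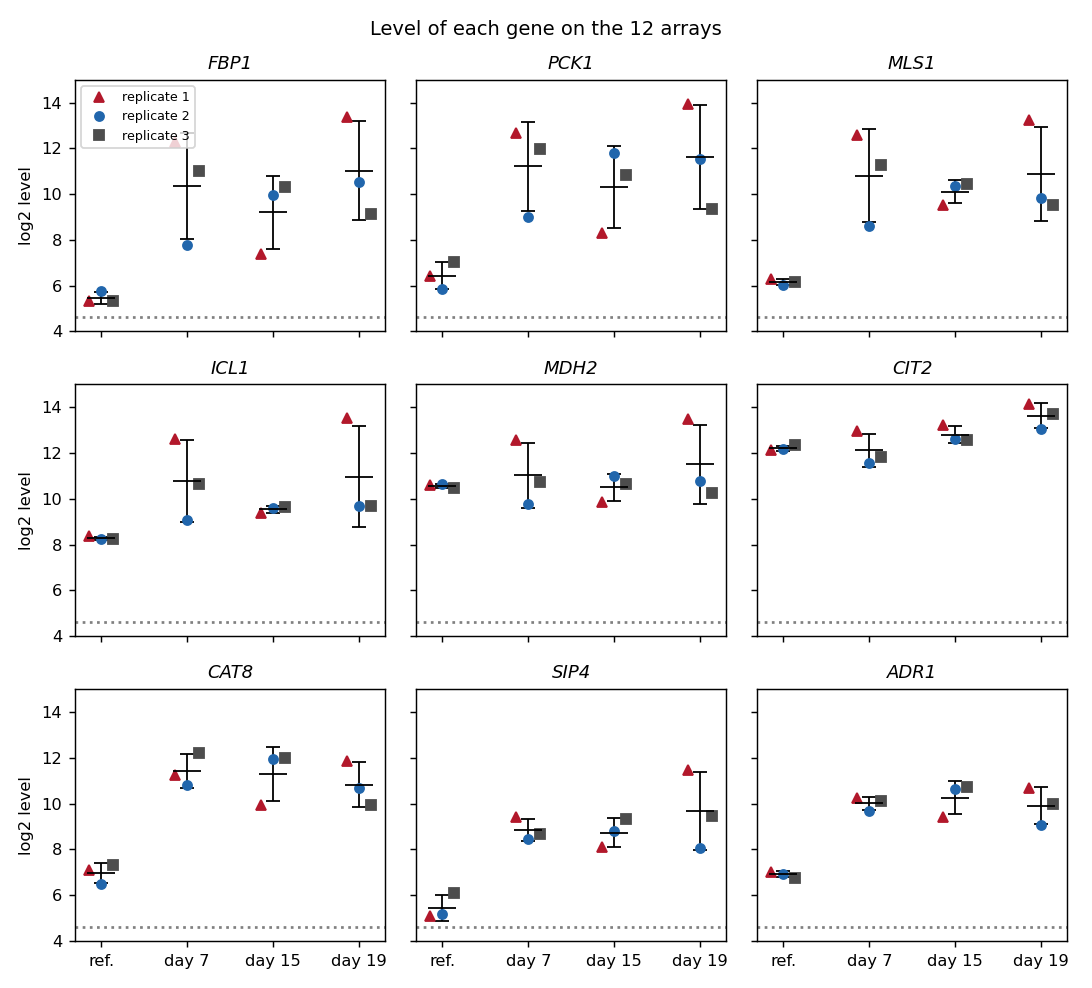
Log2 level of each of the 9 genes (vertical axis) in the reference (ref.) and at each sampling day (horizontal axis). Symbols are single arrays by replicate number, bars the mean ± SD of 3 arrays, and the dotted line the background of 4.62. The enzymes FBP1, PCK1, MLS1, ICL1 and MDH2 spread widely in the bottles and peak in replicate 1 of day 19.

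Levels are deposited log2 values from RMA, and 1 unit is a doubling of signal. The 0.95 quantile of 1746 probe sets for another yeast, Schizosaccharomyces pombe, set the background at 4.62, and all 108 values of the 9 genes lay above it. Taken for each array alone, the same quantile was at most 4.82. Correlations between replicates across genes were 0.987 to 0.997 in the reference and 0.817 to 0.979 in the bottles. Replicate 1 of day 7 (0.892 and 0.893) and replicate 1 of day 19 (0.817 and 0.847) correlated least with the other arrays of their day, so results that rest on them are given with and without both. The mean of 24 ribosomal RNA probe sets was 5.39 to 7.34 in the reference and 9.67 to 11.58 in the bottles. The median difference between 3′ and 5′ probe sets of 8 control genes, a sign of RNA integrity, was 0.43 to 0.46 and 0.58 to 0.92. The mean of 8 sporulation genes was 5.91 to 6.55 and 6.93 to 7.98. These measures moved with the contrast of bottles and reference, and their part in the results was not tested. In bulk RNA, a change in the share of cells that carry a transcript and a change in its amount per cell cannot be told apart. The labels call the bottle replicates independent assays but do not say whether the reference replicates were separate cultures, so their spread may be technical.

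FBP1 (YLR377C) had the largest mean difference of the 9 genes at day 7 and at day 19 when all arrays were used. Without replicate 1 of day 7 and of day 19, CAT8 (4.53) and PCK1 (4.05) were above it at day 7. Its log2 level was 5.33, 5.76 and 5.32 in the reference and 12.26, 7.80 and 11.01 at day 7. It was 7.37, 9.94 and 10.30 at day 15 and 13.38, 10.53 and 9.14 at day 19. Every bottle array lay above every reference array, but the bottle arrays themselves covered 6.01 log2 units. FBP1 rose by a log2 of 4.89 ± 1.22 (SE, n = 3 and 3, adjusted p = 0.01 by limma) at day 7, 3.73 (adjusted p = 0.0277) at day 15 and 5.55 (adjusted p = 0.00445) at day 19. That last value is a 46.7-fold difference in geometric means. Without both arrays that stood apart, the differences at day 7 and day 19 were 3.93 and 4.36, both still called. Without replicate 2 of day 7 or replicate 3 of day 19, the lowest of their days, they were 6.17 and 6.49. At day 15 the call was lost in 5 of the 6 fits that left out 1 reference or day 15 array, with log2 differences of 3.19 to 4.65 over the 6, and under quantile normalization (2.91, adjusted p = 0.0871).

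PCK1 (YKR097W) encodes the enzyme that turns oxaloacetate into phosphoenolpyruvate, the first step particular to gluconeogenesis. Its log2 level was 6.42, 5.86 and 7.04 in the reference and 12.66, 8.99 and 11.99 at day 7. It was 8.31, 11.78 and 10.84 at day 15 and 13.92, 11.54 and 9.37 at day 19. The groups did not overlap with the reference, and replicate 2 of day 7 and replicate 1 of day 15 were again the lowest of the bottles. PCK1 rose by a log2 of 4.77 ± 1.22 at day 7 (adjusted p = 0.0112), 3.87 at day 15 (adjusted p = 0.0235) and 5.17 at day 19 (adjusted p = 0.00637). The differences at day 7 and day 19 were 4.05 (adjusted p = 0.0147) and 4.01 (adjusted p = 0.0129) without both arrays that stood apart. Without replicate 2 of day 7 or replicate 3 of day 19 they were 5.88 and 6.29. Leaving out single reference or day 15 arrays ended the day 15 call in 4 of 6 fits, with log2 differences of 3.13 to 4.87, as did quantile normalization (3.16, adjusted p = 0.0574).

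MLS1 (YNL117W), malate synthase, joins glyoxylate and acetyl-CoA into malate. The reference arrays were tight, at 6.28, 6.03 and 6.15. Day 7 gave 12.56, 8.60 and 11.25, day 15 gave 9.54, 10.36 and 10.44, and day 19 gave 13.25, 9.85 and 9.52. No bottle array came near the reference, and day 15 had the narrowest spread of the bottle days. MLS1 rose by a log2 of 4.65 ± 1.01 (adjusted p = 0.00506), 3.95 (adjusted p = 0.00887) and 4.72 (adjusted p = 0.00392) at the 3 days in turn. These calls held in each fit that left out 1 array of either group, and without both arrays that stood apart the differences at day 7 and day 19 were 3.77 and 3.53.

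ICL1 (YER065C), isocitrate lyase, splits isocitrate into succinate and glyoxylate and so opens the cycle. Its log2 level was 8.36, 8.23 and 8.25 in the reference, 12.64, 9.08 and 10.66 at day 7, 9.38, 9.61 and 9.64 at day 15, and 13.51, 9.70 and 9.68 at day 19. All 9 bottle arrays lay above the reference, but the means at day 7 and day 19 were pulled up by 1 array each. The log2 difference was 2.51 ± 0.98 at day 7 (adjusted p = 0.0652, not called) and 1.26 at day 15 (adjusted p = 0.312, not called). At day 19 ICL1 rose by 2.68 (adjusted p = 0.0452). Without both arrays that stood apart, the ICL1 difference was smaller at day 7, at 1.59 (adjusted p = 0.00657), and at day 19, at 1.41 (adjusted p = 0.00985). At day 15 it was 1.26 as before, now with an adjusted p of 0.00816, so ICL1 was called at each day. Leaving out replicate 1 of day 19 alone gave 1.41 with an adjusted p of 0.135, and the day 19 call was also lost without any 1 of the 3 reference arrays.

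MDH2 (YOL126C), the cytosolic malate dehydrogenase, turns the malate of the cycle into oxaloacetate for PCK1. It was already at 10.60, 10.65 and 10.47 in the reference. The bottles gave 12.58, 9.79 and 10.72 at day 7, 9.85, 11.02 and 10.64 at day 15, and 13.49, 10.77 and 10.27 at day 19. The 2 arrays that stood apart were far above the reference, while the other 7 lay on both sides of it. The log2 differences were 0.46 ± 0.81 (95% interval -1.31 to 2.22, adjusted p = 0.678), -0.07 (-1.84 to 1.70, adjusted p = 0.948) and 0.94 (-0.83 to 2.70, adjusted p = 0.369). Without both arrays they were -0.32, -0.07 and -0.05. Intervals of this width leave changes of several fold in either direction within the error at day 7.

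CIT2 (YCR005C), the peroxisomal citrate synthase, is also the classic target of the retrograde pathway, by which mitochondrial state is signalled to the nucleus. Its log2 level was 12.14, 12.18 and 12.34 in the reference and 12.96, 11.57 and 11.82 at day 7. It was 13.25, 12.60 and 12.58 at day 15 and 14.14, 13.06 and 13.72 at day 19. The day 7 arrays lay around the reference, the day 15 arrays just above it and the day 19 arrays clearly above it. CIT2 rose by a log2 of 1.43 ± 0.37 at day 19 (2.69-fold, adjusted p = 0.0109), and the differences of -0.10 at day 7 (adjusted p = 0.849) and 0.59 at day 15 (adjusted p = 0.215) were not called.

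CAT8 (YMR280C) encodes the zinc cluster activator that binds the promoters of the gluconeogenic and glyoxylate genes. Its log2 level was 7.09, 6.51 and 7.33 in the reference and 11.26, 10.79 and 12.22 at day 7. It was 9.93, 11.96 and 11.99 at day 15 and 11.86, 10.69 and 9.93 at day 19. The lowest bottle array exceeded the highest reference array at every day. CAT8 rose by a log2 of 4.45 ± 0.62 (21.8-fold, adjusted p = 0.000372), 4.32 (adjusted p = 0.000399) and 3.85 (adjusted p = 0.000768), and the call held in each fit that left out an array.

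SIP4 (YJL089W), a related activator that depends on Cat8 and Snf1, gave 5.07, 5.16 and 6.10 in the reference and 9.41, 8.48 and 8.68 at day 7. It gave 8.08, 8.81 and 9.32 at day 15 and 11.48, 8.08 and 9.46 at day 19. Every bottle array was above the reference, and replicate 1 of day 19 stood well above the other bottles. SIP4 rose by a log2 of 3.41 ± 0.69 (adjusted p = 0.00346), 3.29 (adjusted p = 0.00315) and 4.23 (adjusted p = 0.000873), and by 3.32 at day 19 without both arrays that stood apart.

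ADR1 (YDR216W), the activator of ADH2 and of peroxisomal and fatty acid genes, gave 7.03, 6.93 and 6.77 in the reference and 10.24, 9.69 and 10.11 at day 7. It gave 9.43, 10.64 and 10.72 at day 15 and 10.69, 9.05 and 9.99 at day 19. The bottle arrays of ADR1 covered a narrower range than those of the other 2 activators, and none came near the reference. ADR1 rose by a log2 of 3.11 ± 0.42 (adjusted p = 0.000311), 3.36 (adjusted p = 0.000169) and 3.00 (adjusted p = 0.000324).

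**Figure D2:**
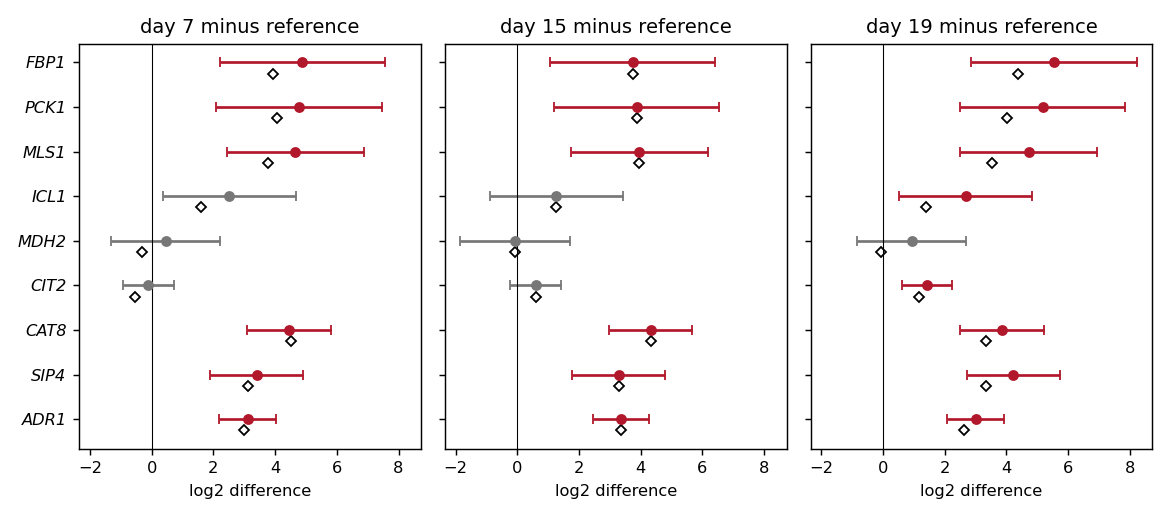
Log2 difference of each gene from the reference (horizontal axis) at day 7, day 15 and day 19, with 95% intervals from limma. Filled red points passed an adjusted p of 0.05, grey points did not, and open diamonds are the values without replicate 1 of day 7 and replicate 1 of day 19. The diamonds of FBP1, PCK1, MLS1 and the 3 activators stay well above 0, while those of MDH2 lie at -0.32, -0.07 and -0.05.

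Between the bottle days no difference of any of the 9 genes passed the test. The counts called by limma were 0 of 9 for day 15 against day 7, for day 19 against day 15, for day 19 against day 7 and for the F-test of any difference among the 3 days. At an unadjusted p under 0.05 they were 0, 1, 1 and 1, in each case CIT2. Of all genes 0% were called in either direction for day 15 against day 7 and 0% for day 19 against day 15, 0.147% for day 19 against day 7, and 0.0367% by the F-test. The order of the means differed between genes. FBP1, PCK1, MLS1 and ICL1 ran from day 15 through day 7 to day 19, and CAT8 ran from day 19 through day 15 to day 7. Without both arrays that stood apart, FBP1 and CAT8 kept their orders. PCK1 and ICL1 were then highest at day 7, and MLS1 was highest at day 15 and lowest at day 19. With all arrays, neighbouring bottle days in the order of the 4 group means differed by less than the larger SD for every gene but CIT2. The day 19 mean of CIT2 exceeded that of day 15 by 0.83 beside an SD of 0.54. The intervals were wide, and for FBP1 the difference between day 19 and day 7 was 0.66 on the log2 scale with a 95% interval of -2.02 to 3.34.

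CIT2 was lowest at day 7 and highest at day 19, and the 3 arrays of day 19 lay above the 3 of day 7. The log2 difference was 1.53 ± 0.37 (limma, adjusted p = 0.16, not called). Leaving out replicate 1 of day 7 gave 1.95 with an adjusted p under 0.05. Leaving out both arrays that stood apart gave 1.70 (adjusted p = 0.00946), in a fit where 314 genes rose and 220 fell between these days. The difference between day 15 and day 7 was 0.70 (adjusted p = 0.516) and that between day 19 and day 15 was 0.83 (adjusted p = 0.453).

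The arrays within a day differed far more for most of these genes than for a usual yeast gene. The residual SD over the 4 groups was 1.78 for FBP1 and 1.77 for PCK1 on the log2 scale, at percentiles 99.8 and 99.7 of all 5449 genes. MLS1, ICL1 and MDH2 followed at 99.2, 98.9 and 97.8, SIP4 and CAT8 at 96 and 94.2, and ADR1 and CIT2 at 81 and 74.4. CIT2 lay at 11.57 to 14.14 in the bottles, close to the highest value on any array (14.33 to 14.63), where differences can be compressed. With all arrays used, the spread of FBP1, PCK1, MLS1, ICL1 and MDH2 was thus near the top of the genome while that of CIT2 was not. The 2 arrays that stood apart held the highest values of these 5 genes. The percentiles were not computed without them. The same bottles were high for several genes. Replicate 1 of day 19 was the highest of the 9 bottle arrays for 7 of the 9 genes, all but CAT8 and ADR1, as it was for 18.8% of all genes. Replicate 1 of day 7 came next for FBP1, PCK1, MLS1, ICL1 and MDH2. The lowest array was replicate 2 of day 7 for MLS1, ICL1, MDH2 and CIT2 and replicate 1 of day 15 for FBP1, PCK1 and CAT8. SIP4 and ADR1 were lowest in replicate 2 of day 19. The 3′ to 5′ difference was smallest in replicate 2 of day 7 (0.58) and replicate 1 of day 15 (0.61), and was 0.86 and 0.67 in replicate 1 of day 7 and of day 19. Its part in the spread was not tested.

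**Figure D3:**
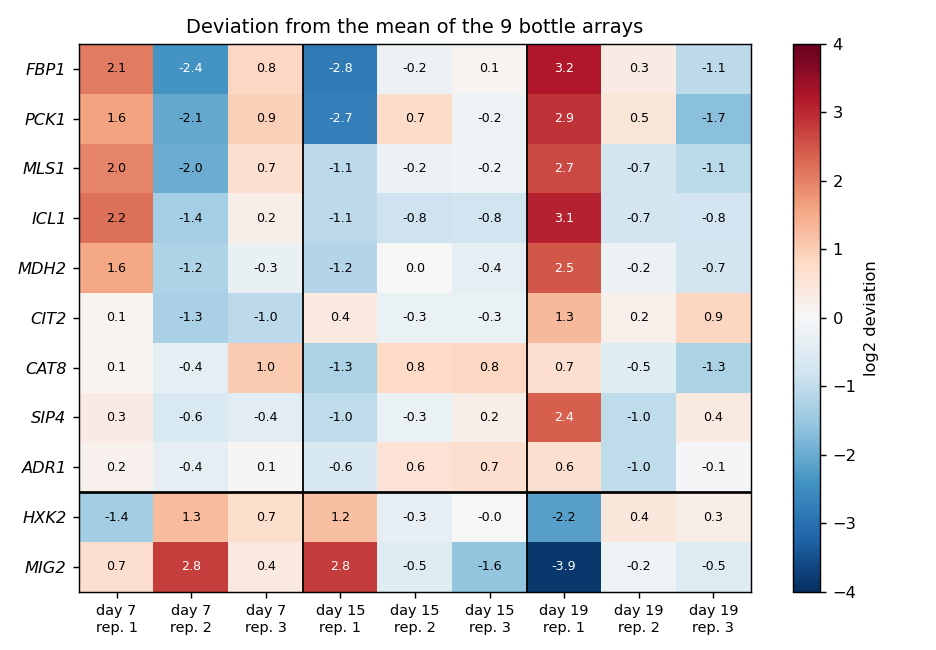
Log2 deviation of each gene (rows) from its own mean over the 9 bottle arrays (columns), red above and blue below. Below the line stand HXK2 and MIG2, genes of glucose repression. FBP1, PCK1, MLS1, ICL1 and MDH2 share high values in replicate 1 of day 7 and of day 19, where HXK2 is lowest.

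Over the 9 bottle arrays FBP1, PCK1, MLS1, ICL1 and MDH2 moved together, and CIT2 followed them less closely. All 36 pairs of the 9 genes were correlated, with exact two-sided permutation p-values adjusted over the 36. The arrays were permuted freely across days, which takes all 9 as exchangeable. No p-value was computed within days or without the 2 arrays that stood apart. Among FBP1, PCK1, MLS1, ICL1 and MDH2, Pearson's r ran from 0.811 to 0.968 with a median of 0.927, and all 10 pairs had an adjusted p under 0.05. With each day centred on its own mean r was 0.791 to 0.973, and over the 7 arrays left without both that stood apart it was 0.577 to 0.946. The closest pair was FBP1 and PCK1, with r = 0.968 (adjusted permutation p = 0.00103) and Spearman's rho = 0.95 (adjusted permutation p = 0.00899). That r was 0.922 without the 2 arrays farthest from the FBP1 median. Values of 1 bottle share its array and its RNA, so a pair's correlation does not separate these genes from others that follow the same bottles.

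The activators tracked the enzyme genes less closely. The 15 pairs of an activator with 1 of the 5 enzymes had r from 0.389 to 0.809, and 3 of them, all with SIP4, had an adjusted permutation p under 0.05. Without the arrays that stood apart these 3 had r of 0.159 to 0.225. With each day centred on its own mean the 15 pairs had r of 0.515 to 0.866. MDH2 and SIP4 had r = 0.809 (adjusted permutation p = 0.0402) and rho = 0.467 (adjusted permutation p = 0.306) over 9 arrays. The r of CAT8 with PCK1 was 0.728 (adjusted permutation p = 0.068, rho = 0.6 with 0.232) over 9 arrays and 0.794 over 7. Among the 3 activators themselves r was 0.367 to 0.717, with 0 of 3 pairs passing. CIT2 had r from -0.304 to 0.587 with the other 8 genes, and 0 of those pairs passed. Its lowest value, with CAT8, was -0.304 (adjusted permutation p = 0.441, rho = -0.517 with 0.291) over 9 arrays and -0.62 over 7. With each day centred on its own mean, r of CIT2 with the other 8 genes was -0.121 to 0.765, the highest being with ICL1.

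**Figure D4:**
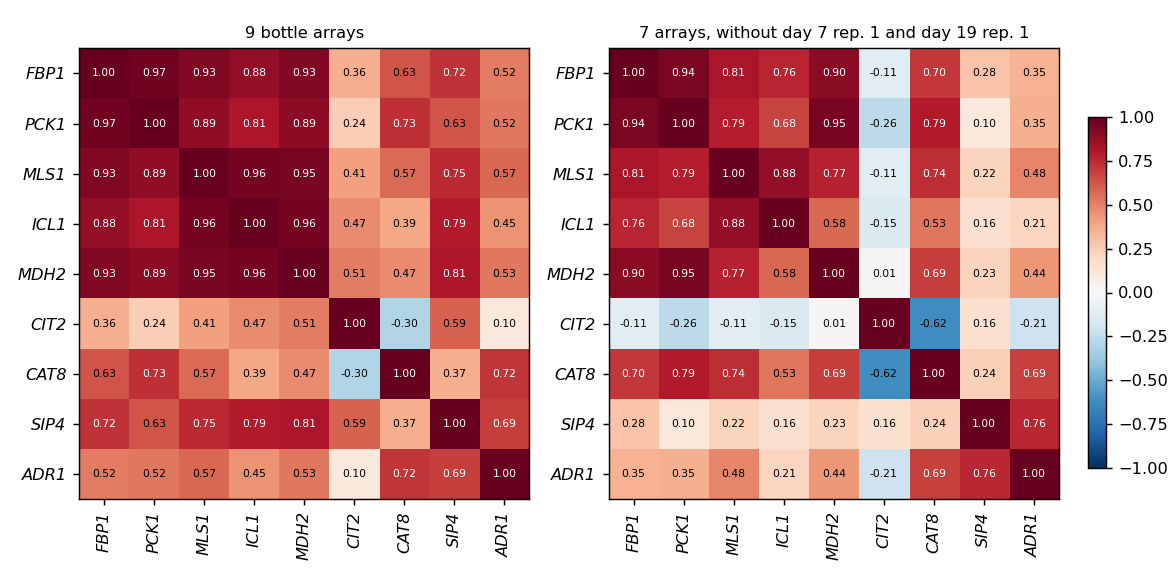
Pearson's r between the log2 levels of each pair of the 9 genes over the 9 bottle arrays (left) and over 7 of them (right). FBP1, PCK1, MLS1, ICL1 and MDH2 form a block of 0.811 to 0.968 on the left, SIP4 falls away from it on the right, and CIT2 stands outside it in both.

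The profile of the 9 genes, each centred on its own mean and then averaged, was set against 5359 other genes with a mean above background. Over the 12 arrays the closest were TKL2 (r = 0.989), the minor transketolase, PAI3 (0.988), an inhibitor of vacuolar proteinase A, GLO4 (0.985), a mitochondrial glyoxalase, ATG36 (0.98), a receptor for peroxisome breakdown, and NDE2 (0.977), an external NADH dehydrogenase of mitochondria. Over the 9 bottle arrays they were PAI3 (0.973), the hexose transporter gene HXT5 (0.965), TKL2 (0.964), the carnitine acetyltransferase gene YAT1 (0.955) and the glucose sensor gene SNF3 (0.955). TKL2 stood at 5.19, 5.04 and 5.83 in the reference and at 12.59 and 13.30 in the 2 arrays that stood apart. In the other bottles TKL2 lay between 8.43 and 11.09.

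Enzymes of the same or related reactions elsewhere in the cell, or that supply the pathway, were described from a list of 14 genes. The arrays gave 13 of them. Of these, 8 rose at each day, 0 fell at day 7 and 1 (PYC2) fell at day 15 and at day 19. The median log2 difference of the 13 genes was 1.51, 1.57 and 1.42. Over all genes 19.7%, 21.4% and 22.7% rose and 17.1%, 23.5% and 20.8% fell. These shares apply beside the counts of the lists below too. SFC1, the mitochondrial carrier that exchanges succinate for fumarate, was not above its array's background in any reference array (4.24, 4.28 and 4.51), so its rise has only a lower limit. With the reference set at that background, SFC1 was at least 12.9-fold higher at day 7, at least 10.7-fold at day 15 and at least 38.4-fold at day 19. These limits were not tested. The limma test of the values as measured gave an adjusted p of 0.0186, 0.0204 and 0.00324 at the 3 days. The limits at day 7 and day 19 were 9.04-fold and 19.1-fold without both arrays that stood apart. The median of the list was the same with SFC1 at its limit. ACS1, an acetyl-CoA synthetase, rose by 2.43, 2.39 and 3.47. The SFC1 calls at day 7 and at day 15 were each lost in 4 of the 6 fits without 1 array.

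Isoenzymes and relatives of the 9 genes are given beside their partners. CIT1, the main mitochondrial citrate synthase, stood at 12.13, 12.11 and 12.09 in the reference and at 13.34 to 13.76 in the bottles. CIT1 rose by 1.51 ± 0.18, 1.57 and 1.42, and CIT3, a minor mitochondrial form, by 2.82 ± 0.69, 3.19 and 4.27, while CIT2 was called at day 19 alone. The CIT3 levels at day 19 were 11.81, 8.94 and 8.32, and without replicate 1 of that day its difference was 3.21, still called. MDH1, the mitochondrial malate dehydrogenase, rose by 1.39 ± 0.21, 1.34 and 0.98, and the peroxisomal MDH3, at 0.33, 0.69 and 0.50, was not called at any day, as MDH2 was not. ICL2, a methylisocitrate lyase of mitochondria, stood at 6.86, 6.67 and 7.34 in the reference and between 9.20 and 11.25 in the bottles, and rose by 3.74 ± 0.44, 3.10 and 3.33. DAL7, the malate synthase of allantoin use, was at 0.51 ± 0.45, 0.35 and 0.40 and not called, beside the rise of MLS1. The difference between isoenzymes was not tested, and levels of different probe sets were not compared.

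**Figure D5:**
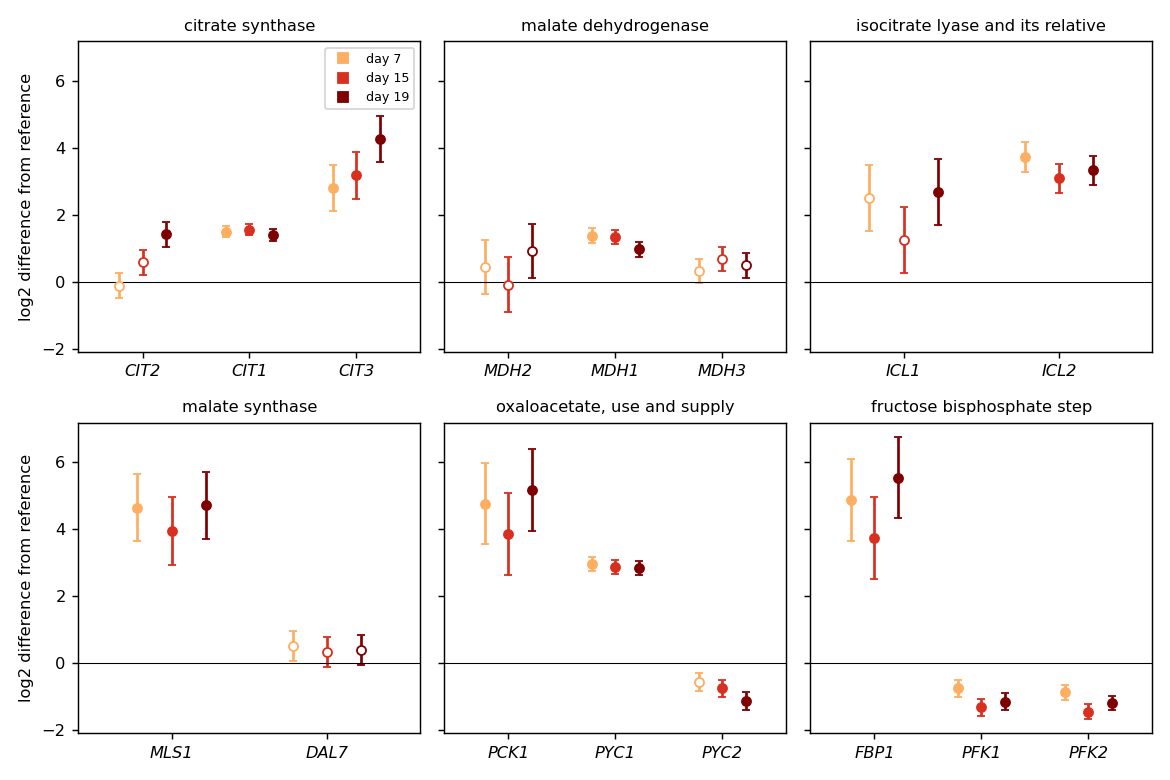
Log2 difference from the reference (vertical axis, ± SE) at day 7, day 15 and day 19. Panels group genes of the same, a related, a supplying or an opposite step of metabolism. Filled points passed an adjusted p of 0.05 and open points did not. MLS1, PCK1 and FBP1 rise, DAL7 is not called, and PFK1 and PFK2 fall.

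The 7 listed genes of glycolytic steps that oppose gluconeogenesis, and of the making and breakdown of fructose 2,6-bisphosphate, moved in both directions. PFK1 and PFK2, the subunits of phosphofructokinase, which runs opposite to FBP1, were highest in the reference, at 13.57, 13.47 and 13.48 for PFK1. PFK1 fell by 0.74 (adjusted p = 0.0391), 1.31 and 1.14, and PFK2 fell by 0.87, 1.44 and 1.19. The PFK1 call at day 7 was lost in 5 of 6 fits without 1 array, and centring on the S. pombe probe sets ended it too. Among the 7 genes of that list 3 rose at day 7, 3 at day 15 and 2 at day 19, and 2 fell at each day. PFK26, which makes the effector fructose 2,6-bisphosphate, rose by 1.26, 1.21 and 1.66, and FBP26, which breaks it down, by 1.20, 1.44 and 1.19. PYC1 and PYC2 make the oxaloacetate that PCK1 uses. PYC1 stood at 10.71, 10.43 and 10.16 in the reference and at 13.10 to 13.65 in the bottles, and rose by 2.98 ± 0.21, 2.88 and 2.86. PYC2 was at -0.56 (not called) at day 7 and fell by 0.74 at day 15 and 1.12 at day 19, and its day 15 call was lost in all 6 fits without 1 array and with centring on the S. pombe probe sets. The reversible steps shared by glycolysis and gluconeogenesis were measured by 9 of 10 listed genes. Of these 1 rose at each day, TDH1 at 0.94, 0.96 and 0.88, and 2, PGI1 and ENO2, fell at day 15 by 0.93 and 0.78, the call of ENO2 being lost in 5 of 6 fits without 1 array. Values of these 9 genes ranged from 11.9 to 14.5, close to the highest value on any array (14.33 to 14.63), where differences can be compressed.

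Other targets of Cat8 and Adr1 stood above the reference as well. Of 12 listed, 9 rose at day 7, 9 at day 15 and 12 at day 19, with 0 falling, and their median log2 difference was 3.53, 3.56 and 4.63. POT1, the peroxisomal thiolase, rose by 5.10 ± 0.85, 6.17 and 5.93, and CRC1, the mitochondrial carnitine carrier, by 5.03 ± 0.49, 5.47 and 6.21. REG2, a phosphatase subunit linked to glucose repression, rose by 4.65, 5.10 and 5.01. ADH2, the dehydrogenase that oxidises ethanol, rose by 4.40 at day 7 and 5.08 at day 19, and its 3.38 at day 15 was not called (adjusted p = 0.0556). Its day 7 call was lost in 5 of 6 fits without 1 array. Without both arrays that stood apart 10, 11 and 10 of the 12 rose. That fit called 1281, 1528 and 1501 of all 5449 genes as rising, and 44.0%, 59.0% and 52.5% in either direction. Its day 19 differences were 3.76 for ADH2, 5.11 for POT1 and 4.37 for REG2. Of 5 genes listed as retrograde targets, as CIT2 is, 3 rose at each day, namely PYC1, IDH1 (1.69, 1.63 and 1.41) and IDH2 (1.37, 1.42 and 1.10). CIT2 itself was called at day 19 alone, and the activity of the retrograde pathway was not tested. DLD3 fell by 1.35 at day 7 (adjusted p = 0.0443) and was at -0.58 and 0.40 later, not called. Without replicate 1 of day 7 and of day 19 it was at -0.87 at day 7 (adjusted p = 0.138), and its call was lost in 5 of 6 fits without 1 array.

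Of 25 further regulators, 4 rose at day 7, 8 at day 15 and 7 at day 19, and 0, 0 and 2 fell. Over all genes 19.7%, 21.4% and 22.7% rose and 17.1%, 23.5% and 20.8% fell. Without both arrays that stood apart 4, 9 and 8 of the regulators rose and 1, 2 and 3 fell. In that fit 1281, 1528 and 1501 of all 5449 genes rose and 1119, 1689 and 1361 fell. These are 44.0%, 59.0% and 52.5% of all genes in either direction. Over the fits without 1 array 2 to 3, 5 to 9 and 3 to 6 of the regulators rose. The kinase subunit gene SIP2 rose by 1.66, 2.28 and 1.86, and HAP4, the glucose-controlled subunit of the activator of respiratory genes, by 1.54, 1.58 and 1.57. The SIP2 calls at day 7 and day 19 were lost in 6 and 5 of 6 fits without 1 array. Both genes that fell at day 19 belong to glucose repression, but MIG1, MIG3, REG1 and GLC7, listed genes of the same system, were not called at any day. HXK2, hexokinase 2, stood at 13.49, 13.51 and 13.55 in the reference, 10.53, 13.16 and 12.61 at day 7, 13.12, 11.59 and 11.90 at day 15, and 9.73, 12.35 and 12.17 at day 19. HXK2 was lowest in the same 2 bottles in which FBP1 was highest, and highest in the 2 bottles in which FBP1 was lowest. Of all genes, 16.7% had their lowest bottle value in replicate 1 of day 19 and 13.4% in replicate 1 of day 7. HXK2 was at -1.42 at day 7 (limma, adjusted p = 0.161) and -1.31 at day 15 (adjusted p = 0.177), not called. It fell by 2.10 at day 19 (adjusted p = 0.0427). MIG2, a repressor that acts in high glucose, ranged from 10.14 to 10.52 in the reference and from 4.58 to 11.25 in the bottles, and fell by 3.40 at day 19 (adjusted p = 0.0329). The lowest of these values, 4.58 in replicate 1 of day 19, was not above background, so the called fall depends on an array without a measured level. The other 2 day 19 arrays gave 8.25 and 7.93. The MIG2 differences at day 7 (-0.59, limma, adjusted p = 0.706) and day 15 (-1.63, adjusted p = 0.265) were not called. Without both arrays that stood apart the day 19 values were -1.25 for HXK2 (adjusted p = 0.0209) and -2.23 for MIG2 (adjusted p = 0.107). In that fit the day 15 difference was called for HXK2 (-1.31, adjusted p = 0.00856) and not for MIG2 (-1.63, adjusted p = 0.169). Without replicate 1 of day 15 alone, MIG2 at day 15 was at -2.90 (adjusted p = 0.0379). Both day 19 calls were lost without replicate 1 of day 19 alone or without any 1 reference array. That of HXK2 was also lost under quantile normalization and centring on the S. pombe probe sets.

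FBP1 was correlated with each of these 25 regulators over the 9 bottle arrays, with p-values adjusted over the 25. Pearson's r ran from -0.881 to 0.779, 10 of the 25 values were negative, and 1 regulator, HXK2, had an adjusted p under 0.05. For HXK2 r was -0.881 (adjusted exact permutation p = 0.0488) and rho -0.7 (adjusted exact permutation p = 0.36). It was -0.745 without the 2 arrays farthest from the FBP1 median and -0.65 without both arrays that stood apart. For MIG2 r was -0.771 (adjusted exact permutation p = 0.124) and rho -0.467 (adjusted exact permutation p = 0.664), with -0.384 and -0.802 in the same settings. FBP1 was also correlated with other lists, each adjusted alone. By Pearson's r 9 of the 12 other targets of Cat8 and Adr1 passed (r of 0.48 to 0.9 over the 12). Of the 8 degradation genes described below 6 passed (0.0652 to 0.83), and of the 7 genes opposing gluconeogenesis 0 passed.

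Gluconeogenic enzymes are removed in glucose by the GID ubiquitin ligase, which marks Fbp1, Pck1 and Mdh2 for breakdown. Of 8 genes for this ligase and its partners, 6 rose at day 7, 6 at day 15 and 7 at day 19, and 0 fell, and 4 to 6, 4 to 6 and 4 to 7 rose in the fits without 1 array. VID24, which encodes the receptor that recognises the enzymes, rose by 2.38 ± 0.38 (adjusted p = 0.000862), 2.37 and 2.05. FYV10, a subunit of the ligase, rose by 2.07, 2.31 and 2.18, and UBC8, its ubiquitin-conjugating partner, by 1.73, 1.91 and 2.15. Transcripts for the degradation system and for FBP1 and PCK1 were thus both above the reference. Protein levels were not measured.

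Sporulation genes were set beside these results because respiring, starved diploid cells also express them. Of 8 listed, 2 rose at day 7, 3 at day 15 and 5 at day 19, beside 19.7%, 21.4% and 22.7% of all genes. Without both arrays that stood apart 2, 5 and 5 of the 8 rose. That fit called 1281, 1528 and 1501 of all 5449 genes as rising, and 44.0%, 59.0% and 52.5% in either direction. SPR3, a septin of sporulation, rose by 1.77, 2.63 and 2.77, and the meiotic activator gene NDT80 by 2.81, 3.05 and 2.69. IME1, the master inducer, rose by 3.54 at day 19 (adjusted p = 0.0162) and was at 1.89 and 1.88 before, not called. Its day 19 levels were 11.80, 8.28 and 7.81, and without both arrays that stood apart the difference was 2.29 (adjusted p = 0.00414). Their part in the results on FBP1 and the other genes was not tested.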

How the data were processed

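The values used were the deposited log2 probe set summaries of 12 Affymetrix Yeast Genome 2.0 arrays, which the submitters' processing notes credit to RMA. Its version is not given in the sources used here. Values were not rescaled. Per the labels' protocols each array took 5 µg of total RNA, labelled by 3′ in vitro transcription. RMA normalizes between arrays, so a change in total messenger RNA per cell would not show. Of 10928 probe sets, 5498 matched exactly 1 S. cerevisiae gene, and the one with the highest mean was kept for each of 5449 genes.

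All genes were fitted with limma 3.58.1 in R 4.3.3 (lmFit, eBayes, 4 groups, 8 residual degrees of freedom), with Benjamini-Hochberg adjustment within each comparison. Calls used an adjusted p under 0.05. The fit was tested on simulated data. Correlations used exact permutation over 362880 orders. The 3 arrays per group limit the precision.

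The members and lists were chosen with earlier results of these data known. All 9 genes, fixed isoenzyme partners, up to 4 called genes per list with the largest change, and the 5 genes most like the mean profile were named. Alternatives were other scalings, filters, fits, a replicate block and left-out arrays, run for the list genes too, a step added after seeing the data. No sequence or genome coordinate was used here. Figures were drawn with matplotlib 3.10.9.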

Additional observations from a re-analysis of the deposited data

Results flagged for a closer look

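Ribosomal RNA probe sets, which no comparison above uses, gave a far higher signal in the bottles than in the reference culture. Their mean log2 value over 24 probe sets was 10.71 at day 7, 10.85 at day 15 and 10.80 at day 19, beside 6.11 in the reference, and no bottle array overlapped with a reference array. No test for single outlying arrays was run within groups of 3. The 2 arrays left out above were picked by their correlation with the others of their day.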

How the results depend on the processing

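The 54 log2 differences of the 9 genes were recomputed under each alternative, which gave 831 values on the same side of the threshold, 17 that lost their call, 16 that gained one and 0 called values of opposite sign. The counts against the reference stayed within 1.5 times the values above under every alternative run. Between bottle days, array weights, whose estimation stopped before it converged, called 2 of the 9 genes for day 15 against day 7, 1 for day 19 against day 15, 1 for day 19 against day 7 and 2 by the F-test, CIT2 and ADR1. Of all genes 27.1%, 14.8%, 8.15% and 33.5% were called there. Leaving out both arrays that stood apart called 1 (CIT2) for day 19 against day 7 and 1 by the F-test, beside 9.80% and 7.18% of all genes. Leaving out single arrays gave 0 to 1 for day 19 against day 7. With array weights 1786 genes rose and 1697 fell at day 7, against 1076 and 931, and 2115 and 2322 at day 15, against 1164 and 1283. Without single reference arrays 535 to 554 genes fell at day 7, without reference replicates 1 and 2 in turn 729 and 711 fell at day 19 against 1134, and without replicate 2 of day 15 826 fell at day 15. Between bottle days, up to 107 genes were called for day 15 against day 7 (without replicate 1 of day 15), and up to 49 for day 19 against day 15, 393 for day 19 against day 7 and 197 by the F-test (each without replicate 1 of day 19). For ICL1, the fit of the compared groups alone called day 7 (adjusted p = 0.0435), and quantile normalization did not call day 19 (2.51, adjusted p = 0.0633). The cause was not tested. Of the values of 44 named list genes against the reference, 1975 kept their side of the threshold, 88 lost and 49 gained a call, and 0 called values turned sign. Same-numbered arrays of different groups had correlated deviations from -0.277 to 0.414, and not every array correlated best with its own number, so the numbers were not taken to pair the arrays. With a replicate block 7, 6 and 8 of the 9 genes were called against the reference and 0 between bottle days.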
